A study of Mus musculus with 3 samples.

Results

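The replication-dependent histone genes described here are the 8 protein-coding rows, of 17796 genes listed, whose symbol starts with Hist1h, Hist2h, Hist3h or Hist4h. All 8 are Hist1h genes: 3 encode H2A (Hist1h2an, Hist1h2ao and Hist1h2ap), 3 encode H2B (Hist1h2bp, Hist1h2bq and Hist1h2br) and 2 encode H4 (Hist1h4m and Hist1h4n), with no H1 or H3 gene. They are a minor part of the family, because the table gives most cluster histone genes under newer symbols such as H2ac, H2bc, H3c and H4c. By position, 61 protein-coding rows are cluster histone genes of the GENCODE M21 annotation, and the other 53 serve below for comparison only. The 8 genes therefore stand for 1 stretch of the family and not for the family as a whole.

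Histones are the proteins around which nuclear DNA is wound, and a cell that copies its DNA must make a new set of them in S phase. Most of this supply comes from replication-dependent genes, which stand in clusters as many near-identical copies. Their mRNAs are unusual: they end in a short stem-loop bound by the protein SLBP instead of a poly(A) tail, and they are made and destroyed with the S phase of each cycle. H2A, H2B, H3 and H4 form the core particle, and H1 binds the DNA that links particles. Activated T cells divide fast and therefore draw on these genes heavily.

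The study compared T cells from the spleens of C57BL/6 mice in 3 groups, each with 1 library of polyadenylated RNA. The groups were young vehicle mice aged 2 months, aged vehicle mice and aged mice given fumarate at 10 mg/kg, 3 times a week for 2 months. The aged mice are given as 24 months old when treated, and the course of vehicle in the young mice is not stated. In all 3 groups the cells were stimulated for 3 days on plates with antibodies to CD3 (2 ug/ml) and CD28 (5 ug/ml), with interleukin 2 at 100 IU/ml. With 1 library per group the differences below carry no p-value and cannot be checked against replicates, and the labels do not say how many mice gave each library. In bulk RNA, fewer cells in S phase, less histone RNA per cell and a smaller share of it captured cannot be told apart.

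Levels are given as CPM, the reads of a gene scaled to a library total of 1000000, or as CPM per kb of annotated exon where genes are compared with each other, and in the order young, aged vehicle and aged fumarate. Differences are log2 ratios of CPM + 1, and a gene is counted as higher or lower past 1.5-fold if its mean over the pair of libraries is at least 1 CPM. Estimated depth, in units of 1000000 reads, was 41.0 (young), 17.3 (aged vehicle) and 13.9 (aged fumarate). The 95% intervals cover counting error only and are those of the plain ratio of CPM, with no 1 added, on the log2 scale. All 19 T cell identity genes were above 0 in every library, with summed levels of 6469, 5693 and 6731 CPM. Markers of other blood lineages differed greatly between these libraries. The 13 erythroid and platelet markers summed to 11.7, 1238 and 156 CPM, and the 9 listed basophil and mast cell markers to 5.42, 453 and 81.7 CPM (none at 0). In aged vehicle over young, all 11 erythroid and platelet and all 9 basophil and mast cell genes at the minimum were higher, and in fumarate over vehicle all were lower. The 9 macrophage and monocyte markers summed to 4.20, 59.3 and 35.8 CPM. Fcgr1 was at 0 in the young library, Adgre1 at 0 in the aged fumarate library and Csf1r far below 1 read in both. Of the 9 markers Ccr2 alone was at 0.957, 25.1 and 29.8 CPM, and 5 of the 6 at the minimum were lower in fumarate over vehicle. The 6 neutrophil markers summed to 0.0488, 11.6 and 1.30 CPM, with 5 at 0 in the young and 4 at 0 in the aged fumarate library. The 11 B cell markers summed to 7.81, 18.8 and 20.5 CPM and the 7 NK cell markers to 32.3, 87.9 and 92.5 CPM. Of the B cell markers, Ebf1 was at 0.927, 5.91 and 9.31 CPM and Cd79b at 1.88, 4.63 and 1.37 CPM. In fumarate over vehicle, 1 of the 6 B cell markers at the minimum was lower and 0 higher. Of the NK cell markers, Klra8 was at 0 in the aged fumarate library. Eomes was at 29.7, 26.9 and 47.4 CPM and Gzma at 0.537, 30.2 and 31.0 CPM. In fumarate over vehicle, 3 of the 6 NK cell markers at the minimum were lower and 1 higher. The 9 plasma cell markers summed to 910, 693 and 668 CPM, with Irf4 alone at 696, 419 and 435 CPM. In aged vehicle over young, 3 of the 8 plasma cell markers at the minimum were higher and 1 lower. The part of these cells in the histone differences was not tested.

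The 8 genes stand together on chromosome 13 between 21786826 and 21837530 (mm10), a stretch of 50705 bases that holds no other cluster histone row of the table. Of these, 6 genes form a mirror image. Read along the chromosome, Hist1h2bq (minus strand, 21806612 to 21810197), Hist1h2ao (plus, 21810465 to 21810944) and Hist1h4m (plus, 21811746 to 21812147) are followed in reverse order by Hist1h4n (minus, 21831767 to 21832196), Hist1h2ap (minus, 21833026 to 21833507) and Hist1h2br (plus, 21833743 to 21837530). The copies are nearly the same in sequence. Over their shared 452 bases the Hist1h2ao and Hist1h2ap transcripts did not differ, the longest coding models of Hist1h2bq and Hist1h2br were identical over 1254 bases, and Hist1h4m and Hist1h4n differed at 1 of 402 bases. Hist1h2an (minus, 21786826 to 21787218) and Hist1h2bp (plus, 21787461 to 21789213) lie outside the mirror, and Hist1h2an differed from Hist1h2ap at 5 of 393 bases. Short predicted miRNA genes overlap Hist1h2an, Hist1h2ao and Hist1h2ap on the opposite strand, and whether counting used strand is not given in the sources used here.

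This likeness limits what single values mean. Of the 24 values of these genes, 1 lay within 0.02 of a whole read, against 58.5% to 68.2% of all values in a library, and that value is far below 1 read. The values of this block thus are not plain read counts. Pair sums are therefore given beside single genes, since a sum does not depend on how reads were divided within a pair. The sums are not free of this limit. The H4 pair summed to 32.8 estimated reads in the aged vehicle library, not a whole number, so reads may also be shared beyond a pair.

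The ends of the transcripts are shown first, since the stem-loop is what sets this family apart and the bases in front of it differ between members. Each line gives 30 bases of the 3′ end in the GENCODE M21 transcript (GRCm38, the same assembly as mm10), with the stem-loop in capitals.
Hist1h2ap (chr13:21833029-21833058, minus strand): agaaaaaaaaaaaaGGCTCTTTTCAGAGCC
Hist1h2ao (chr13:21810884-21810913, plus strand): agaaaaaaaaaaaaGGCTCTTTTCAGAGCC
Hist1h2bp (chr13:21787909-21787938, plus strand): actccaaacacaaaGGCTCTTTTCAGAGCC
Hist1h4m (chr13:21812115-21812144, plus strand): ctttctcaactaaaGGCCCTTTTCAGGGCC
Hist1h4n (chr13:21831798-21831827, minus strand): ctttctcaactaaaGGCCCTTTTCAGGGCC
The H2A and H2B members share 1 form of the stem-loop and the H4 members another with the same loop. Hist1h2ap and Hist1h2ao carry a run of 12 A directly before it, whereas the longest run in Hist1h2bp, Hist1h4m and Hist1h4n is 4 or 5. A run of at least 12 A occurs in 5.31% of all 58797 protein-coding transcripts of the annotation. The model of Hist1h2an ends at the stop codon and so shows no stem-loop. The longest coding models of Hist1h2bq and Hist1h2br have 2 exons and run 823 bases past the stop codon. They hold no stem-loop pattern, and the letters AATAAA or ATTAAA, the poly(A) signal, stand in their last 50 bases, as in 50.2% of all protein-coding transcripts. A second, spliced model of Hist1h2bp also ends in this way.

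The promoters of the mirrored genes are copies too. H2A and H2B genes of a pair are read in opposite directions from 1 shared promoter, and the stretch between the starts of Hist1h2ap and Hist1h2br is printed here because the genes on its 2 sides stand far apart in level. The sequence is from RefSeq (GRCm38.p6), chr13:21833508-21833742, plus strand, with CCAAT, or its reverse complement ATTGG, in capitals.
Hist1h2ap and Hist1h2br: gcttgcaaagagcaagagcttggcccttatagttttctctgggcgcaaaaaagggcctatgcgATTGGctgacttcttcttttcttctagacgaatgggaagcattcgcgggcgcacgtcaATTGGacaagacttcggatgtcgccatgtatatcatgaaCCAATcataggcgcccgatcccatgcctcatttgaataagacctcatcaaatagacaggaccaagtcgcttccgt
These 235 bases hold 3 CCAAT boxes, and the matching stretch beside Hist1h2bq and Hist1h2ao differs at 0 of them. The 300-base promoter windows (250 before to 50 after the start) of Hist1h4m and Hist1h4n differ at 1 of 299 aligned bases. RefSeq windows were matched for all 8 genes. CCAAT, searched on both strands, was present in 6 of the 8, namely all H2A and H2B genes and neither H4 gene. It was present in 40 of the 47 other cluster histone windows matched and in 37.4% of all 32851 windows. The TATA box letters TATAAA were present in 4 of the 8, 26 of the 47 and 13.6% of all. The octamer ATTTGCAT, known from many H2B promoters, was present in 0 of the 8, 11 of the 47 and 1.74% of all. The 8 windows are not separate sequences, since mirrored genes have copied stretches and neighbouring H2A and H2B genes have overlapping windows. None of these letter strings contains another, and a match is a description of letters only.

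The mirrored H2A pair carried nearly all of the signal of the 8 genes, with 356, 179 and 276 CPM as a sum, and most of it was given to Hist1h2ap. The level of Hist1h2ap was 336 CPM in the young, 169 CPM in the aged vehicle and 258 CPM in the aged fumarate library. Its mirror copy Hist1h2ao was at 19.5, 9.73 and 17.8 CPM in the same order. In both H2A genes the young library was highest and the aged vehicle library lowest. Hist1h2an, the remaining H2A gene, was at 0.728, 0.727 and 0.324 CPM. Per kb of exon Hist1h2ap had the highest level of all 61 cluster histone genes in each library, at 697, 351 and 535 CPM per kb. Hist1h2ao was second in the young (40.6 CPM per kb) and fumarate (37.0) libraries and behind Hist1h2ap and H1f2 in the aged vehicle library (20.3). Of the summed CPM of the 61 genes, Hist1h2ap alone made up 64.1%, 50.8% and 65.0%, and the 8 genes together 69.6%, 55.2% and 70.5%. Hist1h2ap was given 94.5%, 94.6% and 93.6% of the summed CPM of the pair with Hist1h2ao, and the transcript models of the pair differ only at their ends. The rank and share of Hist1h2ap alone therefore rest on how reads were divided within the pair, which could not be checked.

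**Figure D1:**
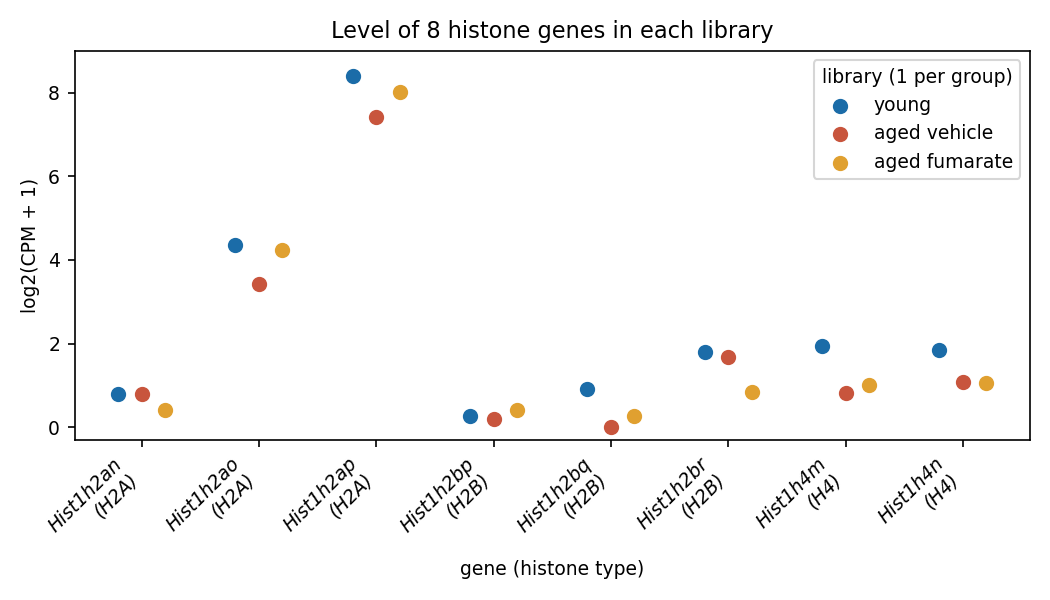
Level of the 8 histone genes as log2 of CPM + 1 (vertical axis), with 1 coloured point for each library (young, aged vehicle, aged fumarate) and no error bar, since each group has 1 library. Hist1h2ap stands far above the others, at 336, 169 and 258 CPM, and Hist1h2ao follows at 19.5, 9.73 and 17.8 CPM.

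The H4 genes encode the histone that pairs with H3 in the centre of the particle. Hist1h4m was at 2.82 CPM in the young, 0.771 CPM in the aged vehicle and 1.02 CPM in the aged fumarate library. Hist1h4n was at 2.60, 1.13 and 1.09 CPM. Summed, the H4 pair was at 5.42, 1.90 and 2.11 CPM. For H4 the young library was highest and the aged libraries lay close together.

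Per kb of exon the H2B genes were the lowest of the block in each library, although Hist1h2br shares its promoter with Hist1h2ap. The exon length joins all models of a gene, and for Hist1h2br (2212 bases) it exceeds the longest coding model (1256 bases). In plain CPM Hist1h2br was above Hist1h2an (0.728, 0.727 and 0.324 CPM) in each library. Hist1h2br was at 2.50, 2.23 and 0.787 CPM, and Hist1h2bq at 0.899, 0.00035 and 0.200 CPM. The Hist1h2bq value in the aged vehicle library equals less than 1 read, so this gene allows no ratio of its own. The pair summed to 3.40, 2.23 and 0.987 CPM, and how its reads were divided cannot be told from identical transcripts. Hist1h2bp was at 0.203, 0.142 and 0.326 CPM. Per kb of exon, Hist1h2br was at 1.13, 1.01 and 0.356 CPM per kb. The H2B sum thus had its lowest value in the fumarate library, unlike the H2A and H4 sums.

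The run of A before the stem-loop was set beside the level of every cluster histone gene. Of the 61 genes, 4 had a run of at least 10 A in a transcript model. Hist1h2ap and Hist1h2ao, with 12 A at the stem-loop, were the highest of all per kb in the young library. H2ac6, with 15, and H2bc6, with 11, were at 0.198 and 0.316 CPM per kb there, among the low genes. In H2ac6 and H2bc6 the run stands elsewhere in the model and not before the stem-loop. H3c3 has 7 A directly before its stem-loop and was at 24.0 CPM per kb. H2ac18, H2ac19 and H2ac20, with 5 A there, were at 5.19, 4.60 and 1.81. H4c3, with 4 A there, was at 3.10, and H2bc8, with 3, at 2.74. H4c9, at 30.2 CPM per kb, was above H3c3 with a longest run of 4 A that lies away from the stem-loop. Unlike the model of H3c3, that of H4c9 holds the letters of the poly(A) signal. How much of each histone mRNA entered these libraries of polyadenylated RNA was not measured, and the part of the A run in the level was not tested. Of the 61 models, 12 end within 30 bases of the stop codon and show nothing of the 3′ end.

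**Figure D2:**
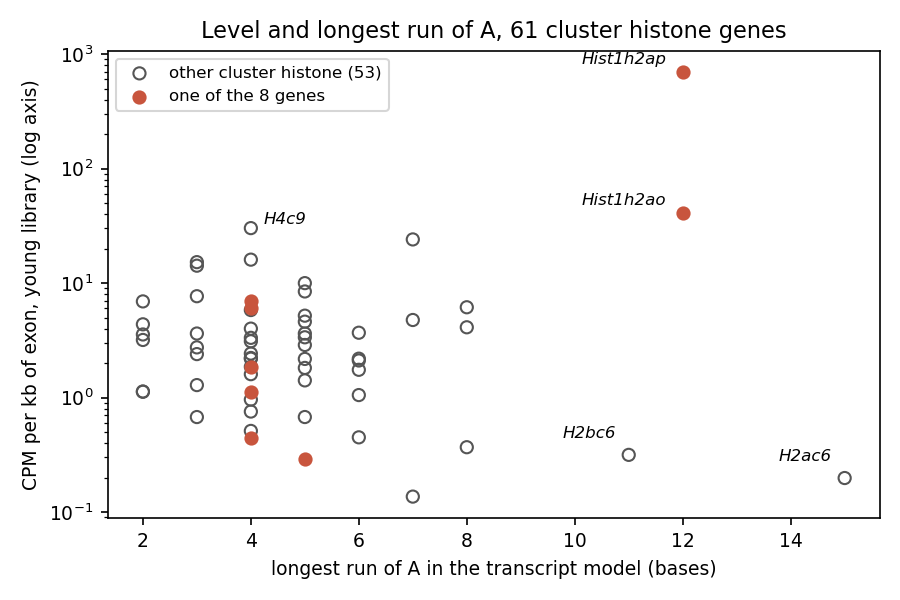
CPM per kb of exon in the young library (vertical log axis) against the longest run of A in any coding transcript model (horizontal axis, bases), 1 point for each of 61 cluster histone genes. Hist1h2ap (697 CPM per kb) and Hist1h2ao (40.6) have runs of 12, while H2ac6 (15) and H2bc6 (11) lie at 0.198 and 0.316 CPM per kb.

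Aged vehicle cells were compared with young cells to ask how activated T cells differ with age. Of the 8 genes, 5 reached the minimum of 1 CPM, and 4 of these were lower in the aged vehicle library and 0 higher. Over all 13844 genes that reached it, 6.8% were lower and 16.8% higher. The 4 lower genes belong to near-identical pairs and are not separate measurements, and with such pairs summed the count was 2. The median log2 ratio of the 5 genes was −0.93, against 0.035 for all genes. Hist1h2ap was lower by a log2 ratio of −0.99 (interval −1.05 to −0.93) and Hist1h2ao by −0.93 (−1.25 to −0.76). Hist1h4m had a ratio of −1.11 (−2.85 to −1.07) and Hist1h4n one of −0.76 (−2.03 to −0.53). Hist1h2br was at −0.11, with an interval of −0.75 to 0.37 that includes 0 (0.19 when scaled to the S phase list), but it was given 73.5% of the summed CPM of its pair with Hist1h2bq in the young and 99.98% in the aged vehicle library. The pair sum was at −0.44 (−1.18 to −0.097), an interval below 0. As sums without the added constant, H2A was lower by −0.99 (−1.04 to −0.93), H4 by −1.51 (−2.08 to −0.97) and H2B by −0.60 (−1.14 to −0.097).

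Other genes of S phase were closer to 0. The 55 S phase genes, among them DNA polymerases and MCM helicase subunits, had a median log2 ratio of −0.41, with 8 lower and 0 higher, and the 29 mitosis genes one of −0.32, with 5 lower and 0 higher. When libraries were scaled to the summed S phase list, 1 of the 5 histone genes stayed past 1.5-fold (Hist1h4m, −0.85), and Hist1h2ap was at −0.55 and Hist1h2ao at −0.53. With 5 CPM added in place of 1, 2 genes were lower.

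The fumarate library was compared with the aged vehicle library to ask how cells of treated aged mice differed. Of 4 genes at the minimum, 2 were higher with fumarate and 1 lower. The background was 2.18% higher and 11.8% lower of 13815 genes. The higher genes were the mirrored H2A pair, Hist1h2ap at 0.61 (0.54 to 0.68) and Hist1h2ao at 0.81 (0.58 to 1.16), and as a pair they were at 0.62 (0.55 to 0.69). Hist1h2br was the lower gene, at −0.85 (−2.59 to −0.47), and summed with its identical copy Hist1h2bq at −0.70 (−2.12 to −0.21). Hist1h4n was at −0.023 (−1.10 to 1.03), and Hist1h4m, under the minimum here, rested on too few reads for a direction. The H4 sum differed by a log2 ratio of 0.15 without the constant, with an interval of −0.64 to 0.90. Hist1h2ap and Hist1h2br, which share a promoter, thus stood on opposite sides of 0, and for Hist1h2ao and Hist1h2bq the reads of Hist1h2bq allow no such statement.

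For fumarate over vehicle the S phase and mitosis genes both had a median of 0.19, and 0 genes of either list were past 1.5-fold. Scaled to the S phase list, Hist1h2ao (0.63) stayed past 1.5-fold and Hist1h2ap did not (0.41). Scaled to the T cell identity list neither did (0.58 and 0.36).

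Set against the young library, the fumarate library had 3 of 5 genes lower and 0 higher, with a background of 7.11% lower and 9.46% higher of 13421 genes. The lower genes were Hist1h4m (−0.92, interval −2.39 to −0.67), Hist1h4n (−0.78, −2.16 to −0.48) and Hist1h2br (−0.97, −2.70 to −0.75). Hist1h4m and Hist1h4n are a near-identical pair and not separate measurements. The H2A genes were within 1.5-fold, Hist1h2ap at −0.38 (−0.44 to −0.33) and Hist1h2ao at −0.13 (−0.34 to 0.075), the latter at 0.10 when scaled to the S phase list. The median of the 5 genes was −0.78, against −0.0021 for all genes. Without the constant, the sums differed by −0.37 for H2A (−0.42 to −0.32), −1.46 for H2B (−2.27 to −0.76) and −1.36 for H4 (−1.98 to −0.81). With 5 CPM added in place of 1, 0 of the genes were past 1.5-fold, since all but the H2A pair lie under 3 CPM. This comparison shares a library with each of the other comparisons.

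**Figure D3:**
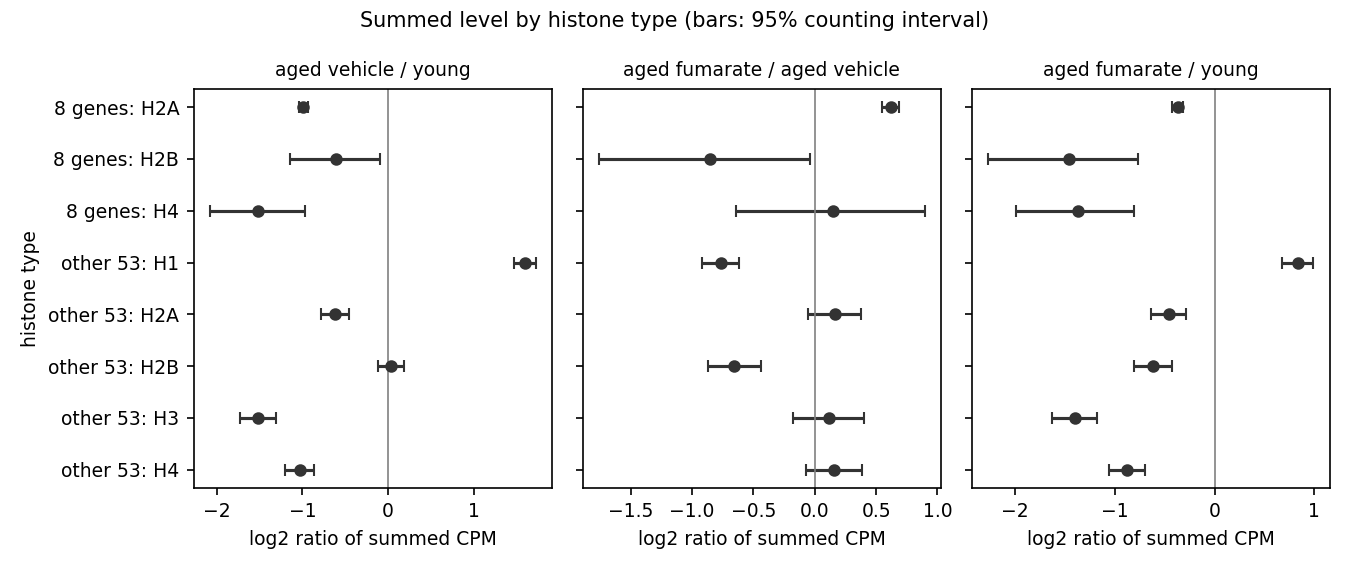
Log2 ratio of the summed CPM of each histone type (horizontal axis, no constant added) in the 3 comparisons, for the 8 genes and for the other 53 cluster histone genes, with 95% intervals for counting error only. For the 8 genes, H2A is at −0.99, 0.62 and −0.37, H2B at −0.60, −0.85 and −1.46, and H4 at −1.51, 0.15 and −1.36.

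The other 53 cluster histone genes, on chromosomes 13, 3, 11 and 6, were used to see where the block of 8 differs from its family. In aged vehicle over young, 19 of the 29 at the minimum were lower and 2 higher (median −0.77). For fumarate over vehicle, 4 of 23 were lower and 1 higher (median 0.021), and for fumarate over young 21 of 32 were lower and 2 higher (median −0.67). As a sum the 53 genes were at 159, 149 and 117 CPM, a log2 ratio of −0.094 for aged vehicle over young (−0.16 to −0.029), closer to 0 than their median. H1, which the block lacks, summed to 21.7, 65.7 and 38.6 CPM, a ratio of 1.60 (1.47 to 1.73), with H1f2 alone at 13.2, 62.7 and 35.5 CPM. The other H4 genes summed to 39.99, 19.6 and 21.8 CPM. The other H2A genes summed to 33.0, 21.6 and 24.1 CPM. H3, also not in the block, summed to 35.3, 12.3 and 13.4 CPM over its 11 genes. The other H2B genes were at 29.4, 30.2 and 19.2 CPM, again lowest with fumarate. With 1 library per group, no difference between the block and the rest could be tested.

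**Figure D4:**
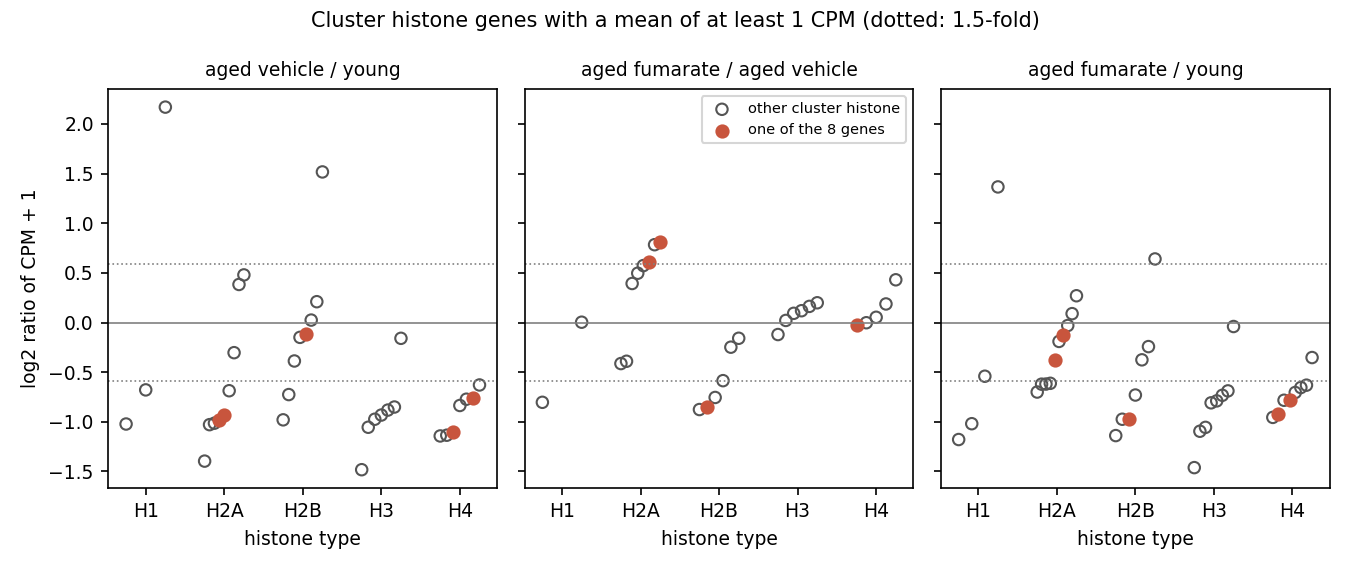
Log2 ratio of CPM + 1 (vertical axis) of each cluster histone gene with a mean of at least 1 CPM, by histone type (horizontal axis), in the 3 comparisons. Filled points are the genes of the block, open points the other cluster histone genes, dotted lines mark 1.5-fold, and in aged vehicle over young 4 of 5 filled and 19 of 29 open points lie below the lower line.

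Genes that make, process and degrade histone mRNA were mostly within 1.5-fold. Of 25 genes of histone transcription and 3′ end processing, 2 were lower and 0 higher in aged vehicle over young (median −0.14), 0 were past 1.5-fold in fumarate over vehicle (median 0.082) and 1 was lower in fumarate over young (median −0.0099). Slbp, which encodes the stem-loop binding protein, was at 149 CPM in the young, 108 CPM in the aged vehicle and 123 CPM in the aged fumarate library. Npat, the cyclin E target that switches on histone transcription, was at 55.1, 48.7 and 53.9 CPM. Casp8ap2, a factor of the histone locus body, was at 98.7, 64.1 and 79.7 CPM, and its ratio for aged vehicle over young was −0.61. Pou2f1, which encodes the octamer-binding factor OCT1, was the other lower gene at 39.3, 24.9 and 27.4 CPM. Nelfe, a subunit of the negative elongation factor, was the lower gene in fumarate over young at 70.9, 51.0 and 45.5 CPM. Of 12 histone mRNA decay genes, Ctif alone was past 1.5-fold, at 4.05, 11.4 and 10.8 CPM, and counted as higher in both comparisons with the young library. The median of this list was −0.061 between the vehicle libraries and 0.082 between the aged ones, and 0.033 with fumarate set against young.

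Among 27 histone chaperones and import factors, 2 were lower and 0 higher in aged vehicle over young (median −0.23). Nasp, a chaperone of H3 and H4 and of linker histones, was at 284, 156 and 201 CPM, and Hjurp, the chaperone of the centromeric variant CENP-A, at 299, 179 and 201 CPM. None was past 1.5-fold in fumarate over vehicle (median 0.060). In fumarate over young, 1 was higher (median −0.13), Ipo4, an import receptor for H3 and H4, at 92.1, 128 and 141 CPM.

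The listed histone variant genes were mostly within 1.5-fold. Of 12 variant rows, 11 reached the minimum in each comparison. In aged vehicle over young 1 was lower (H2az2, at 30.1, 17.5 and 16.7 CPM), with a median of −0.14. In fumarate over vehicle 1 was lower (H1f10, at 6.15, 9.55 and 4.98 CPM), with a median of −0.10. In fumarate over young 2 were lower, H2az2 and H2ax (median −0.26). H2ax, the variant phosphorylated at DNA breaks, was at 144, 101 and 94.7 CPM and H2az1 at 254, 200 and 186 CPM. H3f3b, a gene of the replacement histone H3.3, was at 755, 795 and 740 CPM, and H1f0, a linker histone of resting cells, at 106, 110 and 110 CPM. Scaled to the S phase list, the medians for aged vehicle over young turned to 0.29 for transcription and processing, 0.37 for decay, 0.19 for chaperones and 0.30 for variants.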

How the data were processed

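The deposited table holds 3 columns of CPM, per the file's values: each sums to 1000000, although the table is named as raw counts. The submitters' processing notes name the aligner STAR, the Partek software and the build mm10. Their versions, the counting mode and the annotation were not given in the sources used here. Groups were taken from the titles, and each column was matched to its sample by the description. The worth of 1 read was taken from the steps between low values. As only 58.5% to 68.2% of values were whole reads (tolerance 0.02), no count model was fitted. With 1 library per group no test across samples was possible.

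Values were compared as log2 of CPM + 1. Intervals are 95% Clopper-Pearson on estimated reads, and those for ratios of summed levels were made in the same way from summed reads. They cover counting error only, since reads are not independent molecules. The limit for a gene listed at 0 is 3 reads, which is 0.0732 CPM in young, 0.174 CPM in aged vehicle and 0.217 CPM in aged fumarate cells. Cluster histone genes, exons and transcripts came from GENCODE M21, matched by position, with the table's end moved back by 1 base. Promoters were matched to RefSeq starts within 200 bases.

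Members and gene lists were chosen with earlier results of these data known. Named are all 8 members, up to 4 genes past 1.5-fold of each related list, and key genes fixed with the lists. Testis-specific histone genes were not analysed here. Scaling, constants, minimums and the fold limit were varied, and the rule for calls was tested on simulated reads. Intervals came from scipy 1.17.1, alignments from Biopython 1.88, tables from pandas 2.3.3 with numpy 2.4.6 under Python 3.11.15, and plots from matplotlib 3.10.9.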

Additional observations from a re-analysis of the deposited data

How the results depend on the processing

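The direction of the medians of the 8 genes did not turn under any setting tried, but counts of so few genes moved readily. In aged vehicle over young, 4 genes were lower. The count was 2 with a constant of 5, with a minimum of 10 CPM and with near-identical pairs summed, and 1 with a 2-fold limit and with scaling to the S phase list. The median of −0.93 was −0.44 with a constant of 5 and −0.53 with S phase scaling. In fumarate over vehicle, 2 genes were higher. The count was 1 with S phase scaling and with pairs summed, and 0 with a 2-fold limit and when scaled to T cell identity genes. The 1 lower gene gave 0 with a constant of 5, a minimum of 10 CPM or a 2-fold limit. The median of 0.29 was 0.14 with S phase scaling, 0.11 with T cell identity scaling, 0.20 with no minimum, 0.71 with a minimum of 10 CPM and 0.10 with pairs summed. In fumarate over young the 3 lower genes gave 0 with a constant of 5, a minimum of 10 CPM or a 2-fold limit.

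With all 61 cluster histone genes, chosen after seeing the data as were the pair sums, 23 were lower and 2 higher in aged vehicle over young, 5 were lower and 3 higher in fumarate over vehicle (median 0.021), and 24 were lower and 2 higher in fumarate over young. The H2A sum in the young library was 362 CPM with the trimmed mean of M values and 305 CPM with S phase scaling. With S phase scaling it was 208 CPM in the aged vehicle library, and the H4 sum in the young library was 4.63 CPM. For the other 53 genes in aged vehicle over young, the median turned to 1.52 with a minimum of 10 CPM, which leaves 3 genes (H1f2, H2bc4 and H4c9). S phase scaling moved the median of all genes by 0.41, −0.19 and 0.22 in the 3 comparisons, and T cell identity scaling by 0.17, −0.23 and −0.054. No paired analysis was possible because each group has 1 library, and for the same reason no library could be left out.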

Other observations

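A pair of cluster histone genes outside the block went the other way in the aged vehicle library. H1f2, a linker histone gene, was at 13.2 CPM in the young, 62.7 CPM in the aged vehicle and 35.5 CPM in the aged fumarate library, a log2 ratio of 2.17 for aged vehicle over young and −0.80 for fumarate over vehicle. H2bc4, an H2B gene, was at 4.75, 15.4 and 7.96 CPM, with ratios of 1.52 and −0.88. These were the 2 other cluster histone genes counted as higher in aged vehicle over young, and their order over the libraries was that of the erythroid, platelet, basophil and mast cell markers, whose part was not tested. H4c9, the highest H4 gene outside the block, was at 21.9, 13.8 and 13.8 CPM, and H3c3 at 15.1, 4.78 and 4.86 CPM.

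The letters of a poly(A) signal stand in the last 50 bases of a model in 15 of the 61 genes, H1f2 among them. In aged vehicle over young, 3 of the 9 such genes at the minimum were lower and 1 higher (median −0.15). Of the 31 genes with a stem-loop and without these letters, 17 of 21 at the minimum were lower and 0 higher (median −0.93). The 21 count both genes of the near-identical pairs Hist1h2ao with Hist1h2ap and Hist1h4m with Hist1h4n. The remaining genes show neither feature in their models and are in neither set, H2bc4 (ratio 1.52) among them. This split was chosen after seeing the data, and the difference between both sets was not tested.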
